A study of Homo sapiens with 6 samples.

Results

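The respiratory chain genes were taken as the protein-coding genes of the mitochondrial genome together with the nuclear genes whose symbols name subunits of complexes I to V. The nuclear genes were those whose symbols begin with NDUFA, NDUFB, NDUFC, NDUFS or NDUFV and a digit, with UQCR, with COX and a digit from 4 to 8, or with ATP5, and CYC1 and SDHA to SDHD. This choice held 95 of the 15897 listed genes, 13 in the mitochondrial genome and 82 in the nuclear genome, and 13617 of the listed genes were protein-coding. RNA-seq was performed on 6 libraries labelled as H1650, an established human lung adenocarcinoma cell line. The 3 control libraries carried the genotype label wild type, and the other 3 were labelled shSETD2, for cells depleted of SETD2, the methyltransferase that trimethylates lysine 36 of histone H3. The study silenced SETD2 with 3 lentiviral shRNA constructs, and no source used here tells whether a library number means a construct, a clone or a culture, or which vector the control cells carried. Replicates were not stated to be separate cultures, so p-values measure the spread between libraries, which may be technical. Expression was deposited as FPKM (fragments scaled to transcript length and to the number of mapped fragments), and the number of fragments behind each value is unknown.

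The respiratory chain of the inner mitochondrial membrane passes electrons from NADH (complex I) and succinate (complex II) through ubiquinone, complex III and cytochrome c to oxygen at complex IV, and the proton gradient that complexes I, III and IV build drives ATP synthase (complex V). Its subunits come from separate genomes. The core membrane subunits of complexes I, III, IV and V are read from long polycistronic transcripts of mitochondrial DNA, which are cut into mRNAs by processing enzymes, while all of complex II and most other subunits are nuclear genes whose products are imported. Levels below are FPKM, which is scaled to length. Comparisons between genes are approximate, since they also depend on how reads that match several places were counted, which is unknown. Ratios between genes are given to show a change between the groups, not as ratios of molecules. Differences are log2 fold changes of FPKM + 1, shSETD2 minus control, with the standard error (SE) of the fit and an adjusted p from limma over 14068 tested genes.

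Sequences are shown first for MT-ATP6, the member with the largest difference between the groups, because it shares bases with its neighbour and has a close nuclear copy. MT-ATP8 (chrM:8366-8572) and MT-ATP6 (chrM:8527-9207), the membrane subunits of ATP synthase, lie on the plus strand of chromosome M in GRCh37 and are read from a shared mRNA. They overlap by 46 bases, 22.2% of MT-ATP8 and 6.75% of MT-ATP6. The overlap is in capitals, from the start codon of MT-ATP6 to the end of MT-ATP8, between 20 bases on either side (chrM:8507-8592).
MT-ATP8 and MT-ATP6 overlap: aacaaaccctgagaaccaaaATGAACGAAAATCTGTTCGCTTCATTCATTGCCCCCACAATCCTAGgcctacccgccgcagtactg
The nuclear copy of MT-ATP6 on chromosome 1 of GRCh37 (chr1:569076-569756, plus strand), annotated as the unprocessed pseudogene MTATP6P1, was 98.5% identical over all 681 bases, with 10 mismatches and a longest identical run of 141 bases. The first 240 bases of both are set against each other to show how few bases tell them apart, with the 5 that differ in capitals (chrM:8527-8766 and chr1:569076-569315).
MT-ATP6: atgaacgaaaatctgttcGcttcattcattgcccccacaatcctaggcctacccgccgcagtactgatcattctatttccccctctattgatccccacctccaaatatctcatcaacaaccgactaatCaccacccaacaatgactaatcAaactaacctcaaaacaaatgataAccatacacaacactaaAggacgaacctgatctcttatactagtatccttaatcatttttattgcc
Nuclear copy of MT-ATP6: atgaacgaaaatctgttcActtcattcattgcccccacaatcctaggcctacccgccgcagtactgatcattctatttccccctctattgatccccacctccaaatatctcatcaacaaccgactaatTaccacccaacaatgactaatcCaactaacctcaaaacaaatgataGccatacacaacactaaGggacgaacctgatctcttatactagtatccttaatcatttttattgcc

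The libraries were first set against their labels. SETD2 itself had an FPKM of 18.0, 10.2 and 17.6 in the control libraries, in the order of their numbers, and of 8.97, 8.09 and 12.2 in the shSETD2 libraries, so the groups overlapped, and its log2 difference of −0.58 (SE 0.24) did not pass the threshold (adjusted p = 0.0641). It passed without control library 2 (−0.83, adjusted p = 0.00666) and without shSETD2 library 3 (−0.73, adjusted p = 0.042). Markers of other cell types moved with the groups. Of 15 markers of lung epithelium 4 were listed, summing to between 16.7 and 17.4 in the control and between 9.96 and 10.5 in the shSETD2 libraries, with 3 of them lower, 1, LAMP3, higher (means of 0.584 and 1.23), NKX2-1 at 0 in every shSETD2 library and the surfactant genes SFTPA1, SFTPA2, SFTPB, SFTPC and SFTPD not listed. Most of that sum was ABCA3 (means of 13.5 and 8.32). Of 14 epithelial markers 11 were listed, and their sum was between 15.0 and 17.2 in the control and between 408.3 and 461.7 in the shSETD2 libraries, with 5 of the 6 tested higher and 1 lower. Of 11 markers of renal epithelium 5 were listed (sums of 3.40 to 4.14 against 56 to 65.9), with 4 of the 5 higher and EMX2 lower, at 0 in the shSETD2 libraries. Of 11 markers of embryonic kidney and neural-like lines 7 were listed (92.0 to 96.7 against 59.8 to 64.8), with NEFL, NEFM, INA and LIN28B at 0 in the shSETD2 libraries and the other 3 higher there, HMGA2 with means of 4.48 and 17.9, TUBB3 with 1.32 and 16.1 and DPYSL3 with 0.306 and 28.6. Of 9 fibroblast markers 4 were listed (4.04 to 4.54 against 0.292 to 0.340). The part of such differences between the groups in the results below was not tested, and the groups are called by their labels. In bulk RNA, fewer cells of a type and less RNA per cell cannot be told apart.

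Of all 14068 tested genes, 3774 (26.8%) had a higher level under shSETD2 and 7283 (51.8%) a lower one, with an adjusted p under the threshold of 0.05, and the median log2 difference was −0.29. Scaling the libraries to their median ratio moved that median to −0.01, with 5305 genes higher (37.7%) and 5394 lower (38.3%). The direction of a small difference therefore depended on the scaling, and genes that kept their call as deposited, after median ratio scaling, after quantile normalization and after scaling without chromosome M are named as such below. Scaling without chromosome M hardly moved the values (median of all tested genes −0.291, against −0.290 as deposited), so it adds little to that requirement.

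Among the 92 tested members, 13 were higher, 59 lower and 20 neither, with a median log2 difference of −0.26. Of all tested genes 26.8% were higher and 51.8% lower. After median ratio scaling 39 members were higher and 23 lower, with a median of 0.07, beside 37.7% and 38.3% of all tested genes. The median of the members was thus close to that of all genes as deposited and after median ratio scaling. After quantile normalization it was lower, at −0.32 against −0.11 for all genes. Members also differed among themselves. The FPKM of every shSETD2 library was above every control library for 14 of the 95 members, 1 of them, NDUFA4L2, not tested, and the reverse held for 60 (27.9% and 53% of all tested genes). Under all 4 scalings 8 of the 92 were higher (MT-ATP6, NDUFB2, NDUFS4, NDUFS6, SDHA, COX4I1, ATP5D and ATP5E) and 22 lower, where 25.6% and 34.7% of all tested genes were. The stacked bars of calls show the members beside all genes.

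**Figure D1:**
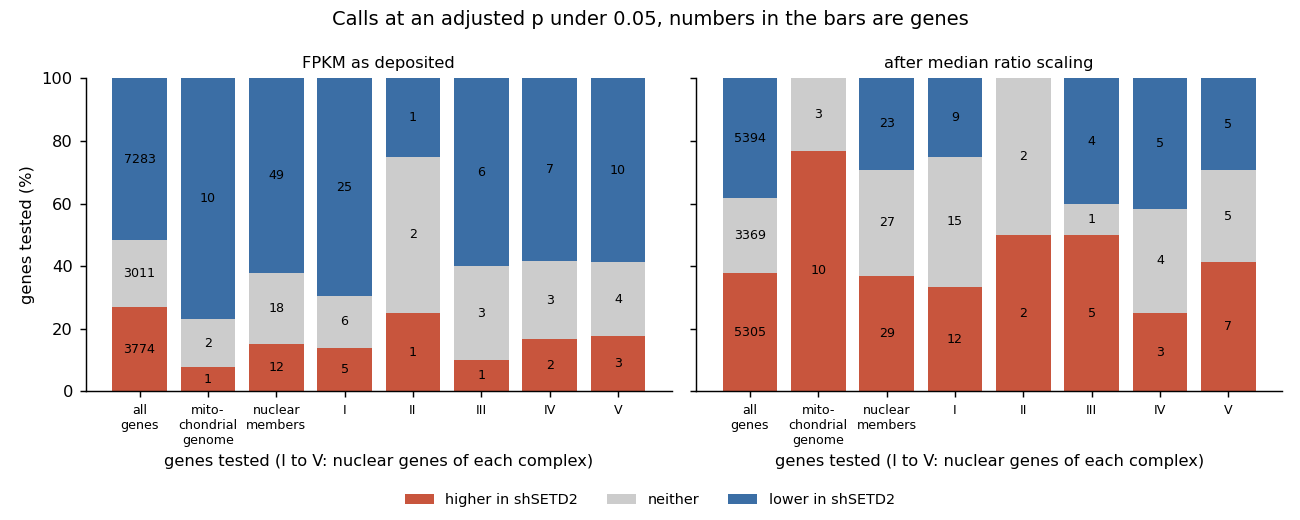
Percentage of tested genes that were higher, lower or neither in the shSETD2 libraries (y axis, %) for all genes, for mitochondrial and nuclear members, and for the nuclear genes of complexes I to V, with FPKM as deposited (left) and after median ratio scaling (right). Numbers in the bars are genes. Of the mitochondrial genes 10 were lower as deposited and 10 were higher after median ratio scaling, and these were not all the same genes.

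The genes of the mitochondrial genome were among the most abundant in the libraries. The 13 genes summed to 13.61%, 13.5% and 13.8% of the listed FPKM in the control libraries, and to 12.98%, 13.4% and 13.08% under shSETD2. The groups did not overlap (13.63% ± 0.151 against 13.15% ± 0.218, SD, n = 3), and an exact permutation test of 3 against 3 libraries, two-sided, gave its smallest possible p of 0.1. Without MT-ATP6 the share was 13.23% ± 0.141 in the control and 11.67% ± 0.204 in the shSETD2 libraries (SD, n = 3). MT-ATP6, the only mitochondrial member called higher as deposited, was left out after its values were seen. This share is therefore a description, and no p is given for it. In the same libraries the nuclear members summed to 1.00% ± 0.0220 and 0.866% ± 0.0177 of the listed FPKM (exact permutation p = 0.1, n = 3).

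MT-ATP6, subunit a of ATP synthase, through which protons pass, differed more than any other member. Control libraries held 870.4, 884.1 and 936.7 FPKM of it, and shSETD2 libraries 3242.9, 3286.7 and 3311.5. The groups were far apart, with a ratio of means of 3.66 and a log2 difference of 1.87 (SE 0.0324, adjusted p = 5.53e-08). Over 15 alternative settings the difference was between 1.58 and 2.23. The lowest value came from quantile normalization, which follows ranks at this level, and the highest from median ratio scaling. MT-ATP8, which shares its mRNA and 46 bases with MT-ATP6, had 2856.4, 2768.4 and 2945.1 in the control and 2759.4, 2923.7 and 2825.4 in the shSETD2 libraries. Those values overlapped, and the log2 difference of −0.01 (SE 0.0332) did not pass the threshold as deposited (adjusted p = 0.786), although MT-ATP8 was called higher after median ratio scaling (0.34) and after quantile normalization (0.08). The value after quantile normalization follows ranks among the highest genes and does not measure level. The FPKM of MT-ATP6 was thus 0.314 ± 0.00809 times that of MT-ATP8 in the control and 1.157 ± 0.0286 times in the shSETD2 libraries (SD, n = 3), a ratio within each library that no scaling of libraries by a factor can move. The next gene downstream, MT-CO3, overlaps MT-ATP6 by 1 base, and the ratio of MT-ATP6 to MT-CO3 was 0.275 ± 0.00940 and 1.26 ± 0.00861, while that of MT-ATP8 to MT-CO3 was 0.876 ± 0.00748 and 1.089 ± 0.0326. In the control libraries MT-ATP6 was thus far below both neighbours, and in the shSETD2 libraries it was above both. These ratios were chosen after the values were seen and carry no test.

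Of the other 12 mitochondrial genes 10 were lower as deposited, by small amounts, and that direction turned with the scaling. As deposited 51.8% of all tested genes were lower. Cytochrome c oxidase subunits MT-CO1 and MT-CO2 had the highest FPKM in both groups, 4097 ± 63.8 and 4080.0 ± 105 in the control and 3417 ± 86.8 and 3716 ± 91.5 in the shSETD2 libraries (SD, n = 3), and in the control they did not differ from each other beyond their spread. MT-CO3 was at 3262 ± 107 and 2604 ± 41.2, and cytochrome b (MT-CYB), the only mitochondrial subunit of complex III, at 2084 ± 51.6 and 1732 ± 29.2. All 4 were lower as deposited, with log2 differences of −0.26, −0.13, −0.32 and −0.27 in that order, and all 4 had positive values after median ratio scaling, between 0.03 and 0.22, of which MT-CO3 was not called. Of the 7 complex I genes 6 were lower as deposited, from −0.33 for MT-ND6 to −0.14 for MT-ND1, and after median ratio scaling these 6 had values between 0.03 and 0.21, of which MT-ND6 and MT-ND4L were not called. MT-ND5, the largest membrane subunit, was at 1615.7, 1611.5 and 1660.6 in the control and at 1615.2, 1608.8 and 1672.7 in the shSETD2 libraries, which overlapped (log2 difference 0.003, SE 0.0258), and it was called lower after quantile normalization (−0.43) and higher after median ratio scaling (0.36). Quantile normalization gives each gene the value of its rank in the library. For genes at the top of the ranking its differences follow changes of rank, as in the mirrored values of MT-CO1 (−0.048) and MT-CO2 (0.048). Its calls among the mitochondrial genes therefore do not measure their level. MT-ND6, the only member on the light strand (minus strand of the reference), had the lowest FPKM of the 13 genes in both groups, 643.4 ± 25.8 in the control and 513.2 ± 46.2 in the shSETD2 libraries (SD, n = 3). The library kit keeps the strand, but whether the strand was used in counting is not given in the sources used here, and without it reads of MT-ND6 cannot be told apart from heavy-strand transcripts across it.

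**Figure D2:**
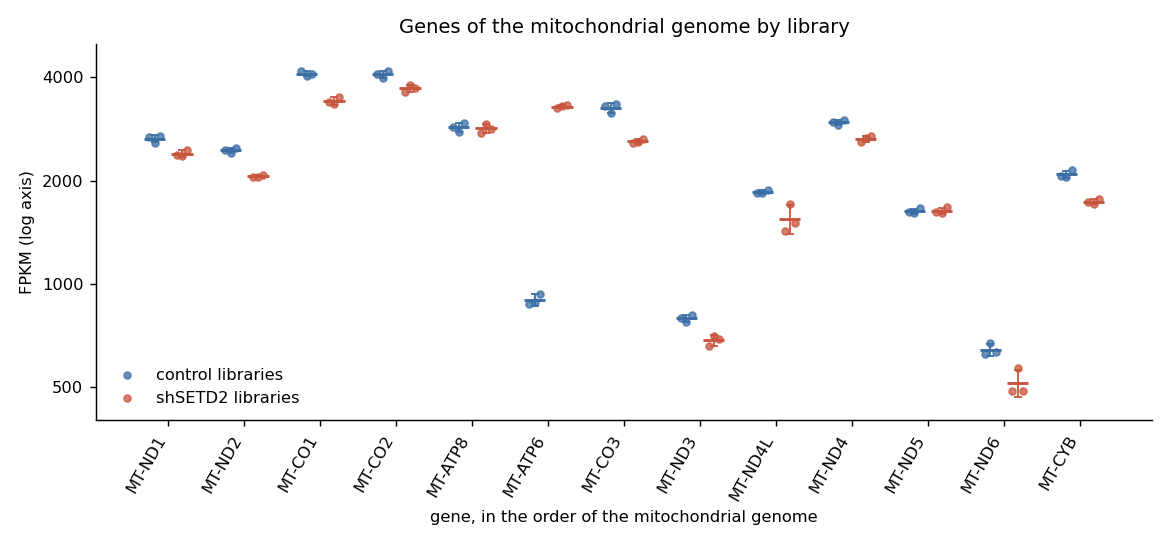
FPKM of the 13 mitochondrial genes (y axis, log scale) in the order of the mitochondrial genome (x axis), with a point for each of the 3 control and 3 shSETD2 libraries, a line at the mean and a bar of 1 SD. MT-ATP6 rose from a mean of 897.1 to 3280.3 between MT-ATP8 and MT-CO3, which stayed between 2567.8 and 3349.6 in every library.

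Nuclear copies bear on how mitochondrial reads can be placed. By alignment to GRCh37, 7 of the 13 genes had a best nuclear copy of at least 97% identity, all 7 on chromosome 1 and running in the order of the mitochondrial genome from MT-ND1 (352 bases at 99.1%) to MT-CO3 (549 bases at 98.2%). MT-ATP8 (97.6% over 207 bases) and MT-ATP6 (98.5% over 681 bases) both lie in that block, as do MT-ND2 (98.4%), MT-CO1 (98.6%) and MT-CO2 (98.0%). The other 6 had best copies on chromosome 5, between 86.0% for MT-CYB and 95.8% for MT-ND4. None of a list of 16 annotated nuclear copies was among the listed genes, so their expression has no value here, and how reads that match both genomes were counted is not given in the sources used here. The share of such reads in any mitochondrial value was not tested.

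As deposited, each complex held nuclear members that were higher and others that were lower. Of 79 tested, 12 were higher, 49 lower and 18 neither as deposited (median −0.34), and 29 were higher and 23 lower after median ratio scaling (median −0.02). For all tested genes the shares higher and lower were 26.8% and 51.8% as deposited, and 37.7% and 38.3% after median ratio scaling. Under all 4 scalings 7 of the 79 were higher and 22 lower, beside 25.6% and 34.7% of all tested genes. The plot of log2 differences by complex shows that every complex held members on both sides of the median of all genes.

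**Figure D3:**
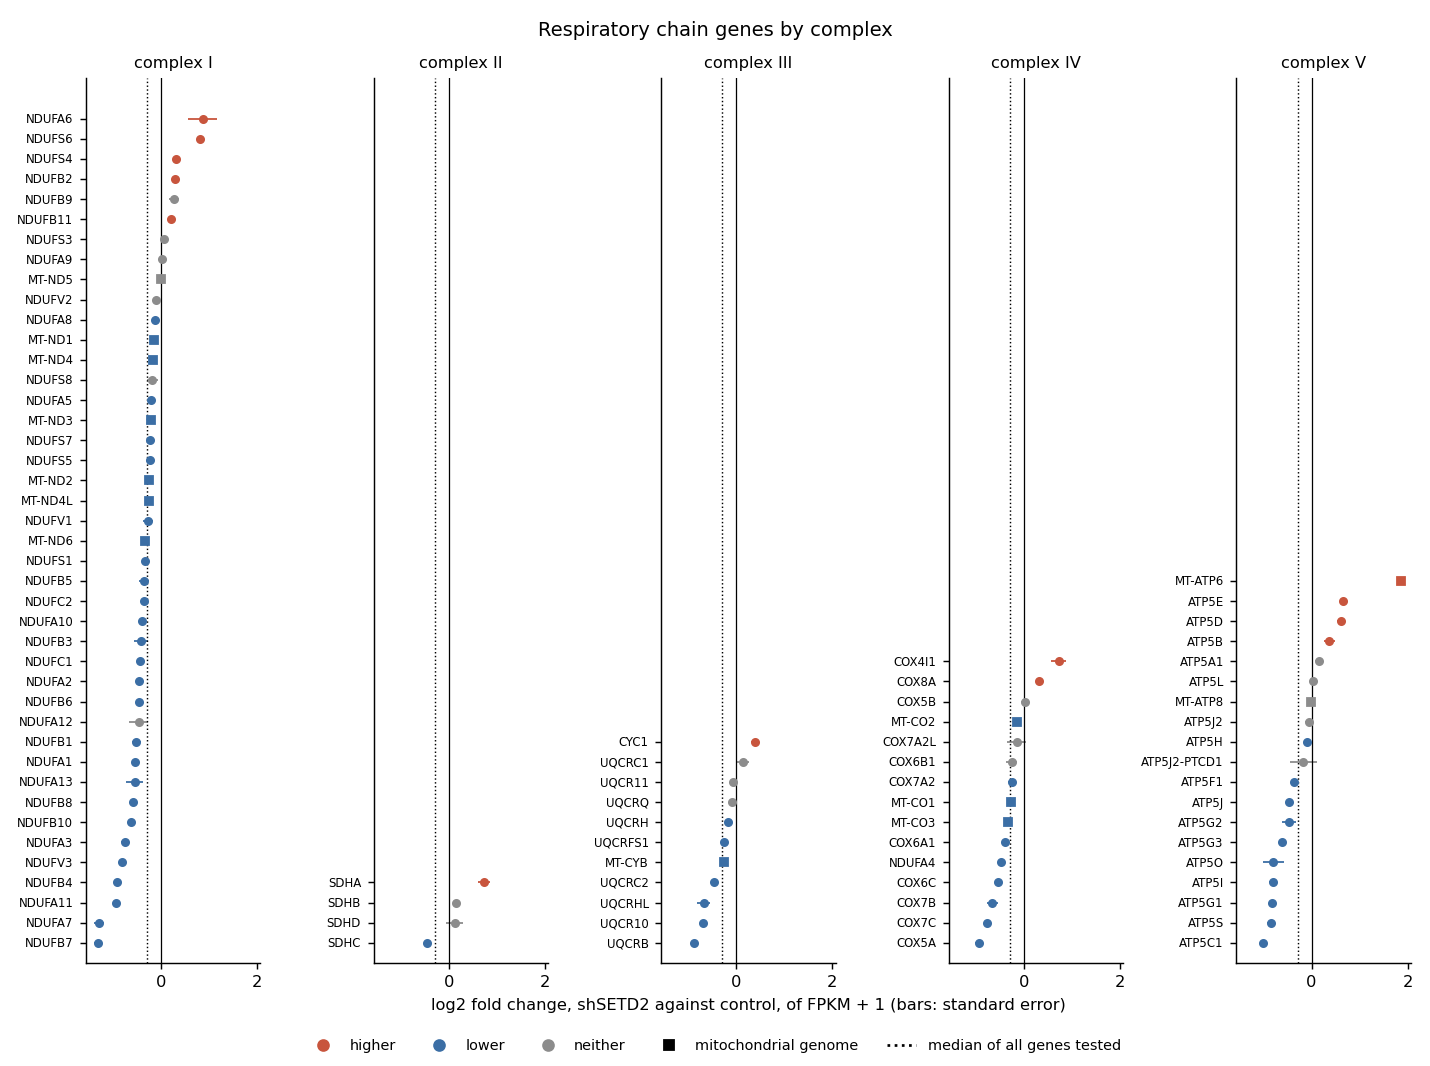
Log2 fold change of FPKM + 1 between the shSETD2 and control libraries (x axis) of tested members (y axis, sorted; not every member is plotted) in complexes I to V, with the standard error as a bar, nuclear genes as circles and mitochondrial genes as squares, coloured by call as deposited. The dotted line is the median of all tested genes (−0.29), and MT-ATP6 stands apart at 1.87.

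Complex I, NADH dehydrogenase, is built of core subunits that carry electrons or pump protons and of accessory subunits around them. Of 36 tested nuclear genes 5 were higher and 25 lower as deposited, beside 26.8% and 51.8% of all tested genes. The 7 nuclear core genes had log2 differences between −0.34 and 0.06, with a median of −0.18, and none kept a call under all 4 scalings. The 29 accessory genes ranged from −1.32 to 0.86, with a median of −0.45, and of these 3 were higher and 9 lower under all 4 scalings (25.6% and 34.7% of all tested genes).

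NDUFB7, an accessory subunit on the intermembrane side of the membrane arm (chr19:14676890-14682874), had an FPKM of 55.2, 50.1 and 56.5 in the control and 21.9, 19.2 and 22.2 in the shSETD2 libraries, a log2 difference of −1.32 (SE 0.0731, adjusted p = 6.77e-06). NDUFA7, also on chromosome 19, fell from 18.5, 18.9 and 21.0 to 6.28, 8.37 and 7.47, and its log2 difference was −1.29 (SE 0.103, adjusted p = 3.7e-05). NDUFA11, a membrane subunit encoded on the same chromosome, was at 11.9, 12.03 and 10.9 and at 5.73, 5.21 and 5.88 (−0.93, SE 0.0634, adjusted p = 1.77e-05). For each of the 3 genes all shSETD2 libraries lay well below all control libraries. NDUFA1, NDUFA3, NDUFB4, NDUFB8, NDUFB10 and NDUFV3 were the other 6 that were lower under all 4 scalings, with log2 differences as deposited between −0.92 for NDUFB4 and −0.55 for NDUFA1.

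NDUFS6, a zinc-binding accessory subunit of the peripheral arm (chr5:1801514-1816719), went the other way. Its FPKM was 17.5, 16.1 and 17.2 in the control and 30.5, 29.9 and 31.2 in the shSETD2 libraries (log2 difference 0.81, SE 0.0457, adjusted p = 7.12e-06). NDUFS4, a subunit of the same arm, was at 18.9, 19.0 and 16.6 and at 22.9, 23.1 and 21.8 (0.30, SE 0.0621, adjusted p = 0.004), and NDUFB2 at 6.81, 6.07 and 6.43 and at 8.16, 7.93 and 8.01 (0.28, SE 0.0533, adjusted p = 0.00268). These 3 did not overlap between the groups and kept their call under all 4 scalings. NDUFA6 had a larger mean difference (0.86, SE 0.305, adjusted p = 0.0377), but its libraries ranged from 16.0 to 29.6 in the control and from 25.6 to 46.7 in the shSETD2 group, which overlapped, and the call was lost after quantile normalization, without control library 1 (0.77, adjusted p = 0.109) or 2 (0.70, adjusted p = 0.117), and without shSETD2 library 1 (0.74, adjusted p = 0.11) or 3 (0.71, adjusted p = 0.112).

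Complex II, succinate dehydrogenase, has only 4 subunits, all nuclear, and they parted. SDHA, the flavoprotein that oxidises succinate, was at 16.4, 13.05 and 15.01 in the control and at 21.7, 25.7 and 28.6 in the shSETD2 libraries (chr5:218356-256815, log2 difference 0.73, SE 0.12, adjusted p = 0.00135). SDHC, a membrane anchor, was at 9.15, 9.87 and 9.73 and at 6.06, 7.21 and 7.06 (−0.45, SE 0.0719, adjusted p = 0.00123), and was not called after median ratio scaling (−0.13). SDHB, the iron-sulfur subunit, had means of 26.6 and 29.7 and SDHD, the other anchor, of 11.8 and 13.2, and neither passed the threshold (adjusted p = 0.0561 and 0.542), although SDHB did after median ratio scaling (0.50, adjusted p = 0.000331) and without control library 2 (0.19, adjusted p = 0.0487), and SDHD without shSETD2 library 2 (0.33, adjusted p = 0.0236). The FPKM of SDHA was 1.55 ± 0.236 times that of SDHC in the control and 3.73 ± 0.276 times in the shSETD2 libraries (SD, n = 3), a ratio chosen after the values were seen. SDHA and several other nuclear members have pseudogene copies elsewhere, and how reads that match both were counted is not given in the sources used here, so their values are uncertain to that extent.

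In complex III, the cytochrome bc1 complex, 1 of 10 nuclear genes was higher and 6 were lower as deposited. Among all tested genes 26.8% were higher and 51.8% lower. UQCRB, the ubiquinone-binding subunit, was at 11.8, 10.4 and 11.4 in the control and at 5.49, 5.87 and 5.60 in the shSETD2 libraries (−0.87, SE 0.059, adjusted p = 1.7e-05). UQCR10, a small subunit, was at 63.2, 61.8 and 70.2 and at 39.4, 38.4 and 42.0 (−0.69, SE 0.0614, adjusted p = 6.47e-05). These genes and UQCRC2, a core protein (−0.46), kept their call under all 4 scalings, while CYC1, the cytochrome c1 heme protein, was higher as deposited (25.8, 26.7 and 29.0 against 39.8, 32.7 and 35.1, log2 difference 0.39, SE 0.0812, adjusted p = 0.00445) and was not called after quantile normalization (adjusted p = 0.128). UQCRHL on chromosome 1 had means of 1.80 and 0.743 (−0.68) beside 88.7 and 78.8 for UQCRH (−0.17). UQCRH was called higher after median ratio scaling (0.18, adjusted p = 0.00537), and UQCRHL was not called after quantile normalization (−0.25, adjusted p = 0.157). UQCRHL is a near-identical copy of UQCRH, so its value is uncertain where reads could be placed in either gene.

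In complex IV, cytochrome c oxidase, 2 of 12 tested nuclear genes were higher and 7 lower as deposited. For all tested genes these shares were 26.8% and 51.8%. The subunits that bind MT-CO1 early in assembly moved apart. COX5A (chr15:75212132-75230509) was at 57.4, 60.5 and 67.4 in the control and at 31.0, 31.1 and 32.6 in the shSETD2 libraries (−0.95, SE 0.0638, adjusted p = 1.69e-05), and COX4I1 (chr16:85832239-85840650), the ubiquitous form of subunit 4, was at 8.87, 13.6 and 13.5 and at 21.3, 19.1 and 20.2 (0.73, SE 0.158, adjusted p = 0.00509). Neither pair of groups overlapped, and both genes kept their call under all 4 scalings. The FPKM of COX4I1 was 0.193 ± 0.0358 times that of COX5A in the control and 0.641 ± 0.0408 times in the shSETD2 libraries (SD, n = 3). COX7C (67.3, 62.8 and 54.7 against 35.4, 35.7 and 36.4, log2 difference −0.76), COX7B (24.2, 28.4 and 30.7 against 15.3, 19.2 and 17.1, −0.66), COX6C (−0.53) and NDUFA4 (−0.49), which is now counted as a subunit of complex IV, were lower under all 4 scalings. COX8A, the most abundant nuclear member, was at 141.5, 138.5 and 140.6 and at 176.5, 164.6 and 180.1 (0.31, SE 0.0404, adjusted p = 0.000457), and was not called after quantile normalization. The mitochondrial core subunit MT-CO1 stood at 66.6 ± 5.97 times the FPKM of COX5A in the control and at 108.3 ± 1.02 times in the shSETD2 libraries, and at 356.2 ± 98.3 and 169.4 ± 8.88 times that of COX4I1, so the ratio of mitochondrial to nuclear subunit moved in opposite directions for COX5A and COX4I1.

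In complex V, ATP synthase, the catalytic F1 head is made of subunits alpha, beta, gamma, delta and epsilon (ATP5A1, ATP5B, ATP5C1, ATP5D and ATP5E), and these genes did not move together. ATP5C1, the gamma subunit that forms the rotating shaft (chr10:7830092-7849778), was at 53.6, 54.1 and 57.9 in the control and at 26.1, 28.4 and 26.1 in the shSETD2 libraries (−1.01, SE 0.0518, adjusted p = 4.56e-06). ATP5E, which binds the foot of that shaft (chr20:57600522-57607437), was at 16.98, 17.3 and 18.7 and at 29.3, 28.0 and 27.6 (0.65, SE 0.0506, adjusted p = 3.25e-05), and ATP5D, its neighbour there, at 8.17, 9.25 and 8.42 and at 13.2, 12.7 and 15.4 (0.62, SE 0.0832, adjusted p = 0.00051). All 3 were without overlap and kept their call under all 4 scalings. Epsilon was at 0.320 ± 0.00289 times the FPKM of gamma in the control and at 1.06 ± 0.0694 times in the shSETD2 libraries (SD, n = 3). These are ratios of RNA levels, whereas the assembled head holds the gamma and epsilon proteins in equal number. ATP5B, the catalytic beta subunit, was at 101.9, 119.1 and 85.7 and at 133.0, 127.1 and 132.8 (0.37, SE 0.113, adjusted p = 0.0224) and was not called after quantile normalization, without control library 1 (0.37, adjusted p = 0.0572) and without shSETD2 library 1 (0.36, adjusted p = 0.0623) or 3 (0.36, adjusted p = 0.0611). ATP5A1 had means of 18.6 and 20.7 and was not called as deposited (adjusted p = 0.111), and was higher after median ratio scaling (0.49, adjusted p = 0.00108).

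The c-ring, which turns as protons pass, is encoded by ATP5G1, ATP5G2 and ATP5G3, whose mature proteins are identical. ATP5G1 was at 10.2, 9.86 and 10.01 in the control and at 5.48, 4.86 and 5.38 in the shSETD2 libraries (−0.82, SE 0.0555, adjusted p = 1.69e-05). ATP5G3 was at 15.3, 15.8 and 15.2 and at 9.89, 9.21 and 10.03 (−0.62, SE 0.0484, adjusted p = 3.45e-05), and both kept their call under all 4 scalings. ATP5G2 was at 19.4, 19.1 and 28.2 and at 15.5, 14.7 and 16.6 (−0.46, SE 0.151, adjusted p = 0.0274), with control library 3 above the others (−0.29, adjusted p = 0.00887 without it). Its call was lost after median ratio scaling and without shSETD2 library 1 (−0.46, adjusted p = 0.0685) or 2 (−0.43, adjusted p = 0.0826). ATP5G1 made up 21.2% of the summed FPKM of these genes in the control and 17.2% in the shSETD2 libraries, ATP5G2 46.2% and 51.1%, and ATP5G3 32.6% and 31.8%. In control library 3 the share of ATP5G1 was 18.8%, against 22.8% and 22.03% in control libraries 1 and 2 and 16.8% to 17.8% in the shSETD2 libraries. Of the remaining genes, ATP5I (−0.81) and ATP5S (−0.85) were lower under all 4 scalings, and ATP5S, a coupling factor named for the complex, was at a low level (means of 2.52 and 0.942).

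**Figure D4:**
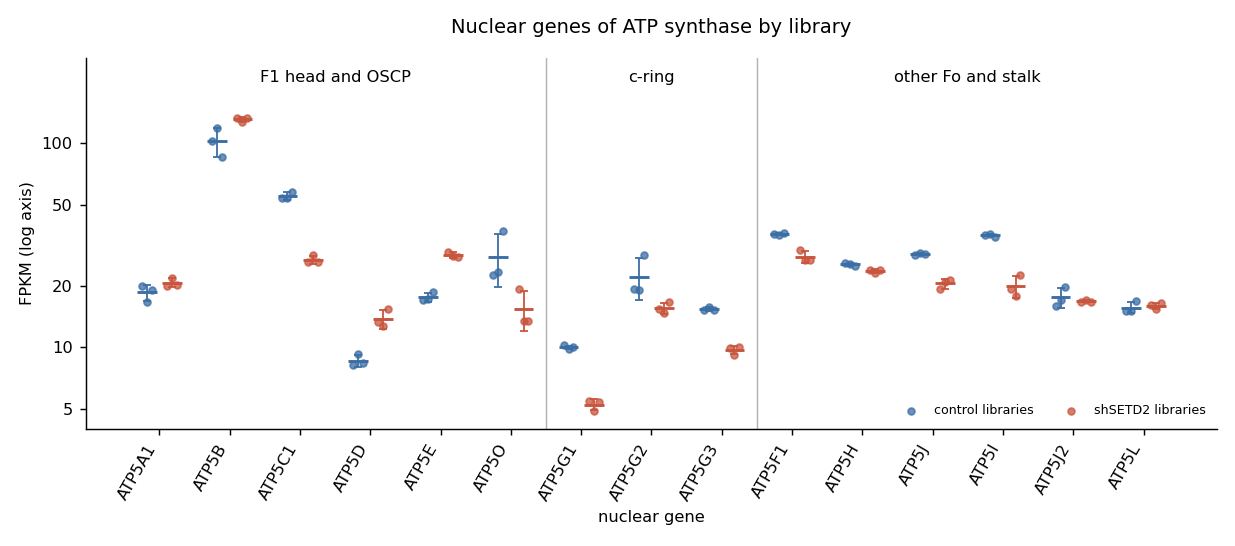
FPKM of 15 nuclear genes of ATP synthase (y axis, log scale; the readthrough gene ATP5J2-PTCD1 and ATP5S are left out), ordered as the F1 head with the stalk subunit ATP5O, the c-ring, and other Fo and stalk subunits (x axis), with a point for each of the 3 control and 3 shSETD2 libraries, a line at the mean and a bar of 1 SD. ATP5C1 fell from 55.2 to 26.8 while ATP5D and ATP5E rose to 13.8 and 28.3.

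Tissue-specific forms of subunits were mostly not listed. COX4I2, COX6A2, COX6B2, COX7A1 and COX8C were absent from the table, so COX4I1, COX6A1, COX6B1 and COX8A were the only listed form of their subunit. COX7A2L, a relative of COX7A2 that takes part in supercomplexes, made up between 37.8% and 40.3% of their summed FPKM in the control and 43.8%, 46.3% and 32.3% in the shSETD2 libraries, which overlapped, and its log2 difference of −0.15 was 0.09 without shSETD2 library 3 (adjusted p = 0.512 and 0.135). COX6A1 was lower as deposited (−0.40) and not called after median ratio scaling (−0.05, adjusted p = 0.363). COX7A2 was lower by a log2 difference of −0.26 as deposited and stood at 0.08, not called, after median ratio scaling, and COX6B1 did not pass the threshold (−0.25, adjusted p = 0.0756), with control library 3 above the others. Without that library its difference was −0.13 (adjusted p = 0.0861), and it passed without control library 2 (−0.35, adjusted p = 0.0231) and after quantile normalization (−0.51, adjusted p = 0.0051), while after median ratio scaling it stood at 0.10 and was not called. Of the 3 members that did not pass the filter of a mean FPKM of 0.5, NDUFA4L2, known as a gene induced by hypoxia, was at 0.390, 0.372 and 0.265 in the control and at 0.532, 0.763 and 0.556 in the shSETD2 libraries, and its share of the FPKM it forms with NDUFA4 was 1.90% and 4.73%. COX7B2, described as a testis form, was above 0 only in shSETD2 library 1 (0.0740), and the readthrough gene NDUFC2-KCTD14 was between 0 and 1.61 in all libraries. Values at these levels are too low to compare.

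The spread among libraries was small for most members. The median coefficient of variation of the tested members was 4.77% in the control and 4.66% in the shSETD2 libraries, and it was over 20% for 8 members in the control and 7 in the shSETD2 libraries. NDUFA6 (35.1% and 30.1%) and ATP5O (29.0% and 22.1%) were among the most variable, and ATP5O was at 22.6, 23.5 and 36.95 in the control against 19.3, 13.4 and 13.4 under shSETD2.

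The nuclear members lie apart on many chromosomes, and their chromosomal neighbours were described for context. For 74 members with at least 5 other tested genes within 1 Mb, the member's log2 difference and the median of those neighbours had a Pearson's r of 0.42 and a Spearman's rho of 0.42. This is a description across genes, several of which share neighbours and all of which share the 6 libraries. SDHA and NDUFS6, both higher, lie in the first 2 Mb of chromosome 5, where 19 other genes were tested, 11 of them higher and 6 lower, with a median log2 difference of 0.68. COX5A had 32 tested neighbours, 28 of them lower and none higher (median −0.68), and NDUFB4 had 9, of which 7 were lower (median −0.91). For COX4I1 (0.73) the median of 10 neighbours was 0.00, and for ATP5J (−0.46) that of 5 neighbours was 1.07, so members could also stand apart from their surroundings.

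**Figure D5:**
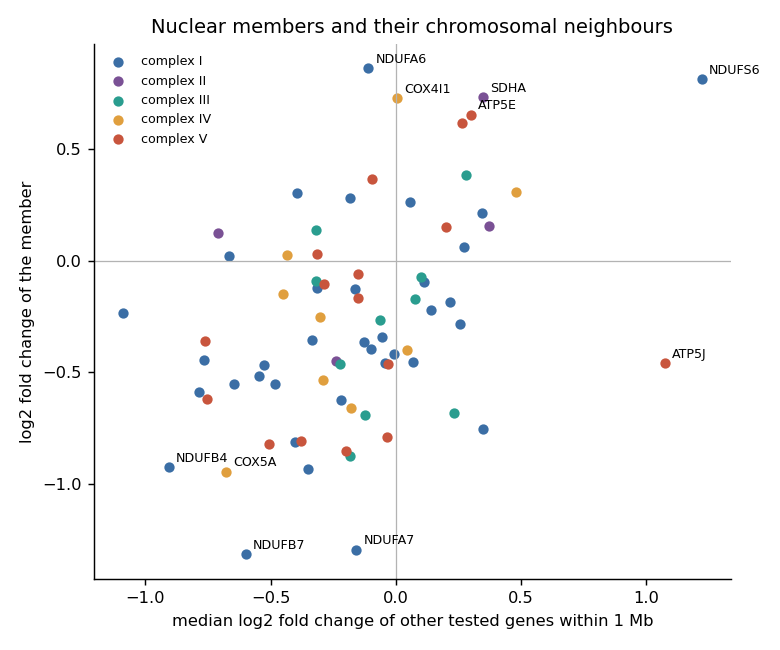
Log2 fold change of each nuclear member with at least 5 tested neighbours (y axis) against the median log2 fold change of other tested genes within 1 Mb (x axis), with 74 points coloured by complex. NDUFS6 and COX5A had the sign of their neighbours' median, ATP5J had the opposite sign, and the median at COX4I1 was 0.00.

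The members were also compared in length and promoter sequence, features that the choice of genes did not use. The representative transcripts of 78 tested nuclear members had a median length of 830 bases and 4 exons, against 3120 bases and 8 exons for 13690 other tested genes. Spearman's rho between length and log2 difference was 0.13 among the members and −0.02 among the other genes, a description across genes. The 44 members under 1000 bases had a median log2 difference of −0.43 and the 34 longer members −0.23, beside −0.35 for 1416 other genes under that length and −0.28 for 12274 longer ones.

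Promoters were taken from RefSeq (GRCh38.p14) as 250 bases before to 50 after the gene start, and 64 of the 82 nuclear members had an entry. The letters GCGCATGC, the core of the palindromic element of nuclear respiratory factor 1 (NRF1), were searched on both strands. They occurred in 13 of the 64 promoters (20.3%), in 5.45% of the promoters of all listed genes with an entry and in 3.27% of all 27305 promoters. The ETS letters CCGGAAGT, bound by the GA-binding protein family, occurred in 14.1% of the members, 8.42% of the listed genes and 4.44% of all promoters, and the YY1 letters AAGATGGC in 17.2%, 5.2% and 3.03%. The NRF1 letters stood in promoters of members of either direction: of the 13, 2 were higher, 8 lower and 3 neither as deposited. Of all 64 members with a promoter, 9 were higher, 38 lower and 15 neither, and the rest were not tested. The letters thus stood in each group of calls in much the same proportion. NDUFS6, which rose, and ATP5C1, which fell, are shown as examples, with the 250 bases before the start, 5′ to 3′ on the gene's strand, and the letters, overlapping on both strands in ATP5C1, in capitals (chr5:1801157-1801406 and chr10:7787927-7788176, both on the plus strand).
NDUFS6: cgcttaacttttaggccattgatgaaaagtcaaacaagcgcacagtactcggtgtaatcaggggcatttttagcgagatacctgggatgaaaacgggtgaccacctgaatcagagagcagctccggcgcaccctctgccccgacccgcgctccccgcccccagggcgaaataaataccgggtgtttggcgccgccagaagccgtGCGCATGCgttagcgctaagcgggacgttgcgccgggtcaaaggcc
ATP5C1: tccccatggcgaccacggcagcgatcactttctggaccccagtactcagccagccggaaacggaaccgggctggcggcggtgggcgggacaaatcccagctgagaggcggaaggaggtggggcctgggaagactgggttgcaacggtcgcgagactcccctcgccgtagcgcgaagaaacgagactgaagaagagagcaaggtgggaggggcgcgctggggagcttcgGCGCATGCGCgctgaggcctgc
A match is a description of these letters, not evidence that a factor binds there.

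The regulators known to act on these elements or on mitochondrial biogenesis were read from a list of 11 genes. Of these 9 were tested, and 2 were higher and 6 lower as deposited, beside 26.8% and 51.8% of all tested genes. GABPA, the DNA-binding subunit of GA-binding protein, was at 17.03, 19.1 and 16.5 in the control and at 6.33, 7.81 and 6.40 in the shSETD2 libraries (−1.24, SE 0.0932, adjusted p = 2.79e-05). PPARGC1B, a coactivator of mitochondrial genes, was at 4.46, 4.63 and 4.75 and at 1.02, 1.07 and 1.11 (−1.44, SE 0.0531, adjusted p = 1.08e-06), and its relative PPRC1 was lower by −0.54. Both coactivators and GABPA stayed lower after median ratio scaling. YY1, named here after its values were seen, had means of 23.9 and 11.9 (−0.95, SE 0.036, adjusted p = 1.21e-06). It was also called lower after median ratio scaling (−0.62). NRF1 had means of 6.04 and 5.01 (−0.23), and TFAM, which packages and transcribes mitochondrial DNA, 21.0 and 17.5 (−0.25), and both had small positive values, not called, after median ratio scaling (0.07 and 0.09). POLRMT, the mitochondrial RNA polymerase, was at 11.9, 12.5 and 12.5 and at 12.4, 11.2 and 12.5, which overlapped (adjusted p = 0.631), and was called higher after median ratio scaling (0.30). ESRRA, an orphan nuclear receptor, was higher (0.79, SE 0.203, adjusted p = 0.0106), and MYC was at 2.52, 2.00 and 2.66 and at 2.97, 11.3 and 14.9 (1.44, SE 0.5, adjusted p = 0.0348), with shSETD2 library 1 close to the control. The call of MYC was lost without any of the 3 control libraries (adjusted p = 0.0778, 0.0964 and 0.0725) and without shSETD2 library 2 (1.24, adjusted p = 0.109) or 3 (1.05, adjusted p = 0.0943). PPARGC1A, below the filter, had means of 0.621 and 0.0211.

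The enzymes that cut and keep mitochondrial RNA bear on the same transcripts as the 13 mitochondrial genes. Of 31 tested genes for expression and upkeep of the mitochondrial genome, 6 were higher and 16 lower as deposited, and 10 and 13 after median ratio scaling. Among all tested genes, 26.8% were higher and 51.8% lower as deposited, and 37.7% and 38.3% after median ratio scaling. The 3 subunits of mitochondrial RNase P, which cuts mitochondrial transcripts at tRNAs, parted. TRMT10C, its methyltransferase subunit, was at 35.5, 38.2 and 37.6 in the control and at 9.69, 11.9 and 10.96 in the shSETD2 libraries (−1.69, SE 0.0757, adjusted p = 2.57e-06). HSD17B10, its dehydrogenase subunit, was at 33.9, 27.0 and 36.3 and at 67.2, 62.2 and 71.4 (1.03, SE 0.114, adjusted p = 0.000185), and PRORP, the nuclease, was higher by 0.32 (SE 0.0624, adjusted p = 0.00294). The calls of all 3 held after median ratio scaling. LRPPRC and SLIRP, which bind and stabilise mitochondrial mRNAs, were both lower under both scalings (−0.48 and −0.53 as deposited). PRORP, LRPPRC and SLIRP were chosen after their values were seen.

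Assembly factors were mostly lower as deposited, as were 51.8% of all tested genes. The counts below also include ATPIF1, an inhibitor of complex V (−1.11), and NDUFAB1, itself a subunit of complex I (−0.38), both called lower as deposited. For complex I, 0 of 19 were higher and 14 lower as deposited (10 lower and 3 higher after median ratio scaling), from −1.35 for DMAC1, a factor of the distal membrane arm, to −0.29 for NDUFAF7, a methyltransferase, among those called. NDUFAF7 was not called after median ratio scaling (−0.00068, adjusted p = 0.992). For complex II, 3 of 4 were lower under both scalings, with SDHAF3 at −1.41 and SDHAF1 at −1.15, both chaperones of the iron-sulfur subunit. SDHB itself was not called as deposited and was higher after median ratio scaling. For complex III, 3 of 6 were lower and 1 higher, from −1.07 for UQCC3 to 0.15 for TTC19 (3 lower and 2 higher after median ratio scaling). TTC19 (adjusted p = 0.0497) lost its call when any library but control library 3 was left out (0.12 to 0.18, adjusted p of 0.0545 to 0.139). For complex IV, 18 of 25 were lower and 3 higher (13 and 6 after median ratio scaling), from −1.38 for COX18, which inserts MT-CO2 into the membrane, to 0.68 for SURF1, which acts early on MT-CO1. For complex V, 5 of 6 were lower and 0 higher (4 and 0 after median ratio scaling), from −1.94 for ATPAF1, a chaperone of the beta subunit, to −0.41 for TMEM70, which was not called after median ratio scaling (−0.12, adjusted p = 0.186). ATPAF1 was at 10.9, 11.4 and 10.3 in the control and at 1.92, 2.04 and 2.30 in the shSETD2 libraries (SE 0.0671, adjusted p = 8.29e-07), while ATP5B, whose product it binds, was higher as deposited.

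Carriers and neighbouring pathways gave the following counts. They stand beside 51.8% of all tested genes lower and 26.8% higher as deposited, and 38.3% and 37.7% after median ratio scaling. Of 16 genes for ubiquinone synthesis, cytochrome c and adenine nucleotide or phosphate carriers, 13 were lower and 0 higher as deposited (9 and 3 after median ratio scaling), from −1.68 for COQ8A, a kinase-like protein of ubiquinone synthesis, to −0.24 for COQ6 among those called. COQ6 was not called after median ratio scaling (−0.004, adjusted p = 0.96) or without shSETD2 library 1 (−0.20, adjusted p = 0.0554), and after quantile normalization its value was positive (0.126). CYCS, cytochrome c, was at 41.0, 40.5 and 41.2 and at 25.8, 30.9 and 25.7 (−0.56, SE 0.0746, adjusted p = 0.000467). Of 23 genes of the citric acid cycle and pyruvate entry, 14 were lower and 4 higher (8 and 9 after median ratio scaling), from −1.54 for MPC1, a subunit of the pyruvate carrier, to 0.70 for OGDH, a subunit of the oxoglutarate dehydrogenase complex. Of 18 genes of the mitochondrial membranes and protein import, 12 were lower and 3 higher (5 and 7 after median ratio scaling). TOMM20, an import receptor of the outer membrane, was at 158.1, 160.7 and 152.4 and at 31.5, 34.5 and 31.9 (−2.23, SE 0.0455, adjusted p = 9.58e-08), and HSPA9, the motor chaperone of import in the matrix, was higher (0.39, SE 0.0331, adjusted p = 4.99e-05).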

How the data were processed

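Total RNA of 6 libraries, 3 control and 3 shSETD2, was prepared with a stranded kit and sequenced on an Illumina HiSeq. The authors aligned reads with HISAT2 to the hg19 build (GRCh37), estimated gene levels in Ballgown and deposited FPKM for each gene and library. Versions, the treatment of reads with several matches and the selection of listed genes are not given in the sources used here. FPKM holds no counts, so depth and counting error are unknown and precision rests on 3 libraries per group. A second table, with the authors' own comparison (fold changes, p-values and q-values), was not used.

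The 14068 genes whose mean FPKM over the 6 libraries reached 0.5 entered a linear model of log2(FPKM + 1) in limma 3.58.1 (R 4.3.3; lmFit, then eBayes allowing for an intensity trend), with Benjamini-Hochberg adjustment over all tested genes and a threshold of 0.05. This scale understates changes of low genes. The fit was tested on simulated data with changes balanced in both directions. That test lacked the broad shift of these libraries, so it cannot bear on the choice of scaling. Alternatives were pseudocounts of 0.1 and 0.01, no filter, a mean FPKM of at least 5, median ratio scaling, quantile normalization, scaling without chromosome M, no intensity trend, the replicate number as a block, and each library left out. The shares of all mitochondrial and of all nuclear members were compared with exact permutation tests. Nuclear copies were found with blastn of BLAST 2.17.0 in GRCh37.

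The members and lists were chosen with earlier results of these data known. Named were all mitochondrial genes, SETD2, per complex the 3 called nuclear members with the highest and the 3 with the lowest log2 difference among those without overlap, members of paralog sets, the called gene with the highest and lowest difference of each associated list, and fixed regulators. Other members were named to describe a complex and were chosen after their values were seen. Of the nuclear members, 18 had no promoter entry (among them ATP5D, ATP5B, ATP5S, NDUFB5, SDHC, NDUFB9, NDUFC2, ATP5G3, UQCRB, COX6C, NDUFS5, CYC1, NDUFA4L2, NDUFA4, UQCRHL, ATP5J2 and ATP5J2-PTCD1). Some genes that enter the fit and the counts are not reported here by name.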

Additional observations from a re-analysis of the deposited data

How the results depend on the processing

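The same 30 members, 8 higher and 22 lower, kept their direction and passed the threshold in every alternative that tested them, of 15 in all. Median ratio scaling changed most else. Under it 29 nuclear and 10 mitochondrial members were higher and 23 and 0 lower, 44 genes of the associated lists were higher (19 as deposited), and the median log2 difference was −0.0154 for nuclear and 0.143 for mitochondrial members. Among all tested genes 37.7% were higher and 38.3% lower under the same scaling. It turned the direction of MT-ND1 (0.210), MT-ND2 (0.107), MT-ND3 (0.143), MT-ND4 (0.192), MT-ND4L (0.094), MT-ND6 (0.026), MT-CYB (0.089), MT-CO1 (0.093), MT-CO2 (0.221), MT-CO3 (0.030), MT-ATP8 (0.345), UQCRH (0.181), COX7A2 (0.078), COX6B1 (0.095), NRF1 (0.073), TFAM (0.088) and POLRMT (0.298). Quantile normalization left 2 mitochondrial members higher and 6 lower, with a median of −0.117, and turned, among others, MT-ND5 (−0.428), MT-CO2 (0.048), MT-ATP8 (0.076) and COQ6 (0.126). For the mitochondrial members these values follow ranks among the highest genes and do not measure level. Which scaling is right was not tested. The count of all genes past the threshold was 5647 with a mean FPKM of at least 5, against 11057, since fewer genes were tested, and a pseudocount of 0.01 gave a nuclear median of −0.37. The mitochondrial share of FPKM over protein-coding genes alone was 16.6% in the control and 15.37% in the shSETD2 libraries. Without each library in turn, the median log2 fold change of respiratory chain genes, nuclear ones only, was between −0.343 and −0.288 and the SETD2 difference between −0.826 and −0.446. SETD2 passed the threshold without control replicate 2 (−0.826, adjusted p = 0.00666) and without shSETD2 replicate 3 (−0.734, adjusted p = 0.042). The replicate numbers did not pair the libraries: same-numbered libraries had correlations of deviations of −0.024, 0.018 and −0.0077. With the replicate block SETD2 had the same difference of −0.577 and an adjusted p of 0.0156. In place of shares, the FPKM ratio of ATP5G1 to ATP5G2 was 0.466 ± 0.0967 in the control and 0.336 ± 0.0161 in the shSETD2 libraries (SD, n = 3). FPKM without depth limits all statements on members below an FPKM of about 1.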
